A study of Mus musculus with 6 samples.

Results

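Collagen chains are the polypeptides from which the collagens of the extracellular matrix are built, and each chain has its own gene. They were taken as all genes of the RPKM table whose symbol has the form Col, a type number, a and a chain number, which gave 43 of 21671 genes. The chains were sorted into 11 fibrillar chains, 8 basement membrane chains and 24 others, the latter being 9 FACIT chains, 5 chains of type VI collagen, 4 transmembrane chains, 3 short-chain collagens and 3 remaining chains. RNA-Seq was performed on 6 libraries of cells sorted from the gastrocnemius of mdxITGAM-DTR mice, which lack dystrophin and carry the diphtheria toxin (DT) receptor under the ITGAM promoter, that is in CD11b-expressing myeloid cells, so that DT depletes macrophages (MΦs). SCs CTRL were satellite cells (SCs) of PBS-injected mice, SCs DT were SCs of DT-injected mice, and α7Sca1 cells were Lin- cells of DT-injected mice positive for both α7-integrin and Sca1, whereas SCs were Lin-, positive for α7-integrin and negative for Sca1. Mice of 10 to 12 weeks were injected intramuscularly every 4 days, with DT at 1 ng per g of body weight or with vehicle, and were sacrificed 15 days after the first injection. Every group held 2 libraries, each from the pooled muscles of 2 mice, and each library was therefore reported on its own. α7Sca1 cells of PBS-injected mice are not analysed here, so cell population and DT could be separated only within the DT-injected mice.

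Collagens are trimers wound into a triple helix. Fibrillar collagens, of which type I and type III are the main ones of muscle connective tissue and tendon, assemble outside the cell into the fibers that accumulate in fibrosis. Type IV collagen forms the network of the basement membrane that surrounds each myofiber and covers the satellite cell, type XV and type XVIII collagens link such membranes to the tissue around them, and type VI collagen forms beaded filaments beside the membrane and belongs to the niche of the satellite cell. FACIT collagens bind to the surface of fibrils or to the junction of muscle and tendon.

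The bases before the start of Col1a2 and Col3a1 are shown because these fibrillar chains are high in the same library and carry different upstream sequence. RefSeq (GRCm38.p6) places the Col1a2 stretch on the plus strand of chr6:4505368-4505617 and the Col3a1 stretch on the plus strand of chr1:45311288-45311537. Both end at the base before the transcript start and read 5′ to 3′, and capitals mark CCAAT and GGGCGG, searched on both strands.
Col1a2: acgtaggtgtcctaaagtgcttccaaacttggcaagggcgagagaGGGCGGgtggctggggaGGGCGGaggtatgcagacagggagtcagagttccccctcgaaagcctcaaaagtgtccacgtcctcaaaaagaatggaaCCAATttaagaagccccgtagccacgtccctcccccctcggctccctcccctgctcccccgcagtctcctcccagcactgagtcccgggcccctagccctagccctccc
Col3a1: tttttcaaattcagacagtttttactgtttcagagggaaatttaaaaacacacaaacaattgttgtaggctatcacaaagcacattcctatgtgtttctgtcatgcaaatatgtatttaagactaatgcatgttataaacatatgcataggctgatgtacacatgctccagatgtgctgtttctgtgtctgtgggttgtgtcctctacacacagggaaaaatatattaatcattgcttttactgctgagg
Col1a2 held 1 CCAAT and 2 GGGCGG matches in these 250 bases, and Col3a1 held neither. Of 34 collagen genes matched in RefSeq, 13 had a CCAAT match and 21 a GGGCGG match in at least 1 promoter, while 33.8% and 32.7% of all 32851 promoters held them. The collagen counts are per gene and these shares per promoter, so a gene with several promoters has more chances of a match. These matches describe the letters of the window only.

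Values are RPKM, read numbers divided by the length of the transcript and the size of the library, and share one distribution in all 6 libraries, so a shift common to most genes would not be visible and the depth of the libraries is unknown. The comparisons rest on limma fits of log2(RPKM + 1) across the 6 libraries, run for 13934 genes with a maximum RPKM above 0.25, and adjusted p-values are limma's after Benjamini-Hochberg adjustment over all of these genes. This scale understates the change of chains of low RPKM. An exact permutation test of 2 against 2 libraries can give no p below 0.333, and limma's p-values measure the spread between libraries pooled from mice. In bulk libraries fewer cells of a type and less RNA per cell cannot be told apart. Of the 43 chains, 36 passed the filter, namely 11 fibrillar, 7 basement membrane and 18 other chains, and the 7 that were not tested reached at most 0.217 RPKM.

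The SCs CTRL libraries differed in the collagen chains and in other gene lists. Of the 36 chains, 33 were higher in SCs CTRL 1 than in SCs CTRL 2, against 43.8% of all genes tested, and 11 of the 36 exceeded it by more than 1 on the log2(RPKM + 1) scale, against 1.34% of all genes. The median gap of the 36 chains was 0.59 in SCs CTRL, 0.03 in SCs DT and 0.10 in α7Sca1 cells. The tendon markers differed too: all 8 were higher in SCs CTRL 1, and none was listed at 0 in either library. Their summed RPKM was 2261 in SCs CTRL 1 and 241 in SCs CTRL 2. Of these, Fmod, the fibril-binding proteoglycan fibromodulin, had 913 and 72.9 RPKM, and Thbs4, thrombospondin-4, had 817 and 104 RPKM. All 14 FAP and fibroblast markers were also higher in SCs CTRL 1, with a summed RPKM of 860 against 245, none at 0, and with Dcn (decorin) at 425 and 67.6 RPKM and Ly6a (Sca1) at 31.0 and 21.6 RPKM. The 10 satellite cell markers went the other way, all being lower in SCs CTRL 1, with a summed RPKM of 568 against 726, while Pax7 itself was at 4.87 and 5.01 RPKM. Of the other lists, 8 of 8 macrophage, 6 of 6 endothelial, 6 of 6 Schwann cell and 18 of 18 immediate early genes were higher in SCs CTRL 1, with median gaps of 0.70, 0.52, 0.40 and 0.47, but only 4 of 8 pericyte and smooth muscle and 4 of 10 adipocyte markers. Such gaps were not limited to SCs CTRL. In α7Sca1 cells 7 of 8 tendon and 14 of 14 FAP and fibroblast markers were higher in library 1. Their median gaps there were 1.08 and 1.09, beside 2.89 and 1.18 in SCs CTRL. In SCs DT 4 of 8 and 2 of 14 were higher in library 1. Of the collagen chains, 24 were higher in α7Sca1 library 1 and 12 lower, with gaps of 0.98 for Col1a1 and 0.99 for Col6a1. Xist, transcribed from the inactive X chromosome, was at 0.00959 and 10.5 RPKM and the Y-linked Ddx3y at 13.7 and 0.0844 RPKM in SCs CTRL 1 and 2. In SCs DT 1 and 2 Xist was at 3.80 and 0.0168 RPKM and Ddx3y at 6.17 and 14.5 RPKM. In α7Sca1 cells 1 and 2 Xist was at 1.57 and 0.0290 RPKM and Ddx3y at 4.45 and 18.5 RPKM. Both genes were chosen after their values were seen. The paper used male and female mice, in equal numbers in each experimental group, and does not state the sex of the mice of each library. The part of these differences in the collagen values was not tested.

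Collagen RNA was a small share of all RPKM in every library but one. The 43 chains summed to 3411 and 571 RPKM in SCs CTRL, to 377 and 408 in SCs DT, and to 597 and 378 RPKM in α7Sca1 cells. This was 1.78% of the summed RPKM of all genes in SCs CTRL 1 and 0.196% to 0.311% in the other 5 libraries. Fibrillar chains made up most of it, with 88.5% and 71.6% of the collagen RPKM in SCs CTRL, 57.0% and 66.6% in SCs DT, and 67.6% and 63.8% in α7Sca1 cells. The class sums differed in how far they spread: the fibrillar chains summed to 3018 RPKM in SCs CTRL 1 and to between 215 and 409 RPKM elsewhere, whereas the basement membrane chains summed to between 76.6 and 131 RPKM in all 6 libraries. The other chains summed to 262 RPKM in SCs CTRL 1 and to between 57.2 and 112 RPKM elsewhere.

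**Figure D1:**
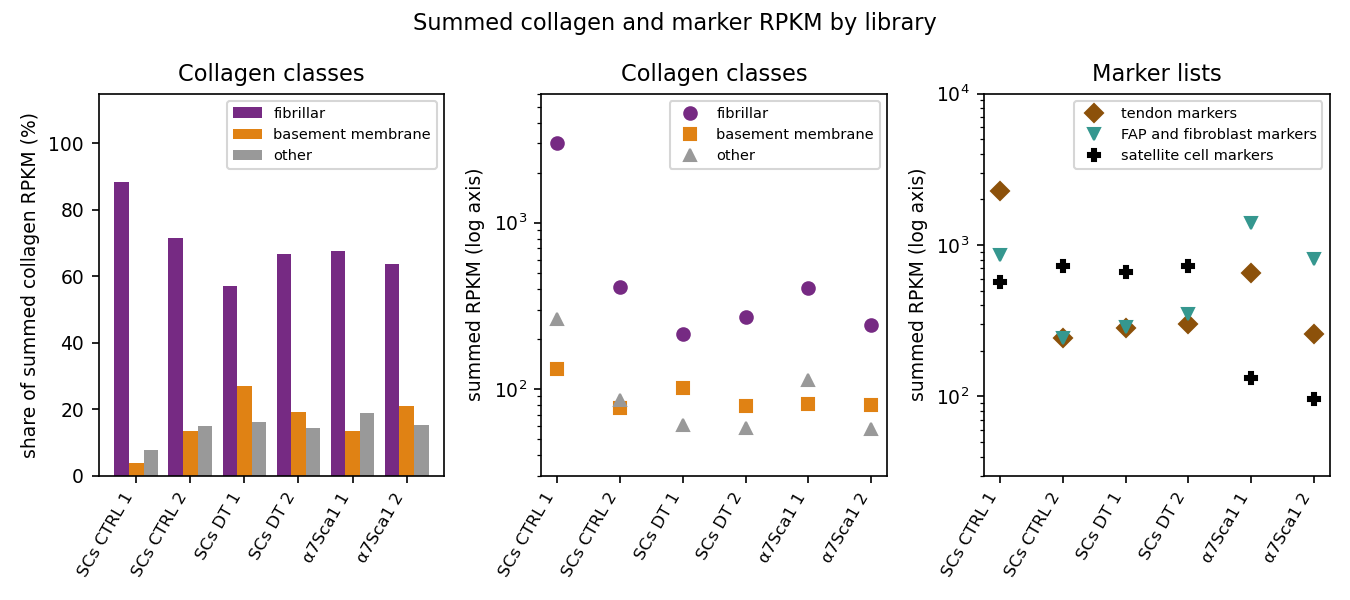
Share of each collagen class in the summed collagen RPKM (left, bars from 0), summed RPKM of the classes (middle, log axis) and of 3 marker lists (right, log axis) in each of the 6 libraries, 1 bar or point a library. SCs CTRL 1 has the highest fibrillar sum (3018 RPKM) and the highest tendon marker sum (2261 RPKM), while basement membrane chains stay between 76.6 and 131 RPKM.

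Among the fibrillar chains, Col1a1 and Col1a2, the chains of type I collagen, were the leading pair. Col1a1 was measured at 2287 and 192 RPKM in SCs CTRL, at 80.9 and 109 in SCs DT, and at 223 and 113 RPKM in α7Sca1 cells. It was the gene of rank 4 among all 21671 genes in SCs CTRL 1 and of rank 165 in SCs CTRL 2, and its values in α7Sca1 cells lay on both sides of SCs CTRL 2. Col1a2 had 386 and 71.7 RPKM in SCs CTRL, 41.3 and 51.3 in SCs DT, and 65.7 and 35.5 RPKM in α7Sca1 cells. SCs CTRL 1 was again far above the rest, the α7Sca1 libraries enclosed both SCs DT libraries, and SCs CTRL 2 was above all 4 libraries of DT-injected mice. Col3a1, the chain of type III collagen, had 271 and 108 RPKM in SCs CTRL, 61.4 and 86.1 in SCs DT, and 90.1 and 68.0 RPKM in α7Sca1 cells, so that both SCs CTRL libraries were above the other 4.

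Chains of type V collagen, which is buried inside type I fibrils and limits their width, spread less. Col5a2, which lies beside Col3a1 on chromosome 1, had 39.4 and 19.97 RPKM in SCs CTRL, 15.2 and 17.4 in SCs DT, and 14.4 and 13.7 RPKM in α7Sca1 cells, an order of groups without overlap. With 2 libraries a group such separation was common. Both α7Sca1 libraries lay below both SCs DT libraries for 36.4% of all genes and below both SCs CTRL libraries for 38.1%. Both SCs DT libraries lay below both SCs CTRL libraries for 25.1% and above them for 21.6%. These shares apply to each separation of a pair of groups given below. For an order of all 3 groups, or a group apart from both others, no share over all genes was computed. Col5a3 had 15.1 and 10.6 RPKM in SCs CTRL, 11.7 and 5.55 in SCs DT, and 6.63 and 8.89 RPKM in α7Sca1 cells, and the SCs DT libraries here enclosed SCs CTRL 2 and both α7Sca1 libraries. Col5a1 and the other 5 fibrillar chains had means under 5 RPKM in every group and between 0.00762 and 8.33 RPKM in single libraries. The highest of these values was that of Col11a1 in SCs CTRL 1. Col11a1, Col11a2 and Col2a1, known as chains of cartilage fibrils and chosen here after their values were seen, were at 8.33, 2.00 and 3.22 RPKM in SCs CTRL 1 and at 1.07, 0.2501 and 0.284 RPKM in SCs CTRL 2. In the other 4 libraries none of these chains exceeded 0.591 RPKM.

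Of the basement membrane chains, Col4a1 and Col4a2, which form the common type IV trimer, overlapped between all groups. Col4a1 had 71.5 and 36.6 RPKM in SCs CTRL, 41.9 and 44.7 in SCs DT, and 42.3 and 57.3 RPKM in α7Sca1 cells, and the SCs CTRL libraries enclosed all others. Col4a2 had 21.5 and 13.2 RPKM in SCs CTRL, 35.2 and 14.7 in SCs DT, and 26.1 and 13.9 RPKM in α7Sca1 cells, with the first library the higher one in each group. On mm9 these genes lie head to head on chromosome 8, Col4a1 from 11198423 to 11312826 on the minus strand and Col4a2 from 11312805 to 11449287 on the plus strand, and they overlap at their starts, where reads cannot be told apart unless strand was counted, which is not given in the sources used here.

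Col18a1, whose product carries endostatin at its end, had 30.2 and 21.2 RPKM in SCs CTRL, 19.8 and 16.1 in SCs DT, and 10.3 and 6.80 RPKM in α7Sca1 cells. The 3 groups were ordered without overlap. Col15a1, its closest relative, had 5.67 and 3.60 RPKM in SCs CTRL, 2.51 and 1.07 in SCs DT, and 1.70 and 0.815 RPKM in α7Sca1 cells, where SCs CTRL lay above the rest and the others overlapped. The chains of the minor type IV trimers were low: Col4a3 and Col4a4 reached at most 0.252 RPKM, while Col4a5 and Col4a6 had up to 1.56 and 0.405 RPKM.

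Col6a1 and Col6a2, the neighbouring genes of type VI collagen on chromosome 10, resembled the fibrillar chains more than the basement membrane chains in the gap within SCs CTRL. Col6a1 had 154 and 50.3 RPKM in SCs CTRL, 27.6 and 32.1 in SCs DT, and 73.0 and 36.3 RPKM in α7Sca1 cells, and SCs CTRL 2 lay between the α7Sca1 libraries. Col6a2 had 52.7 and 12.8 RPKM in SCs CTRL, 13.1 and 7.31 in SCs DT, and 21.4 and 10.1 RPKM in α7Sca1 cells, with overlap between all groups. The 3 other type VI chains measured, Col6a4, Col6a5 and Col6a6, stayed at or under 0.377 RPKM.

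Col8a1, a short-chain collagen of vessel walls and other sheet-like matrices, had 14.9 and 9.13 RPKM in SCs CTRL, 7.26 and 8.33 in SCs DT, and 6.48 and 3.91 RPKM in α7Sca1 cells, again without overlap between the 3 groups. Col22a1, a FACIT chain of the myotendinous junction, had 13.7 and 1.64 RPKM in SCs CTRL, 0.213 and 0.309 in SCs DT, and 0.575 and 0.266 RPKM in α7Sca1 cells, so that both SCs CTRL libraries exceeded all others. Col26a1 had 7.07 and 3.67 RPKM in SCs CTRL, 3.01 and 2.75 in SCs DT, and 0.588 and 0.435 RPKM in α7Sca1 cells, and its groups did not overlap. Of all 43 chains, 30 had means under 5 RPKM in every group, and the number at or above 1 RPKM was 24 and 19 in SCs CTRL, 18 in both SCs DT libraries, and 16 and 14 in α7Sca1 cells.

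**Figure D2:**
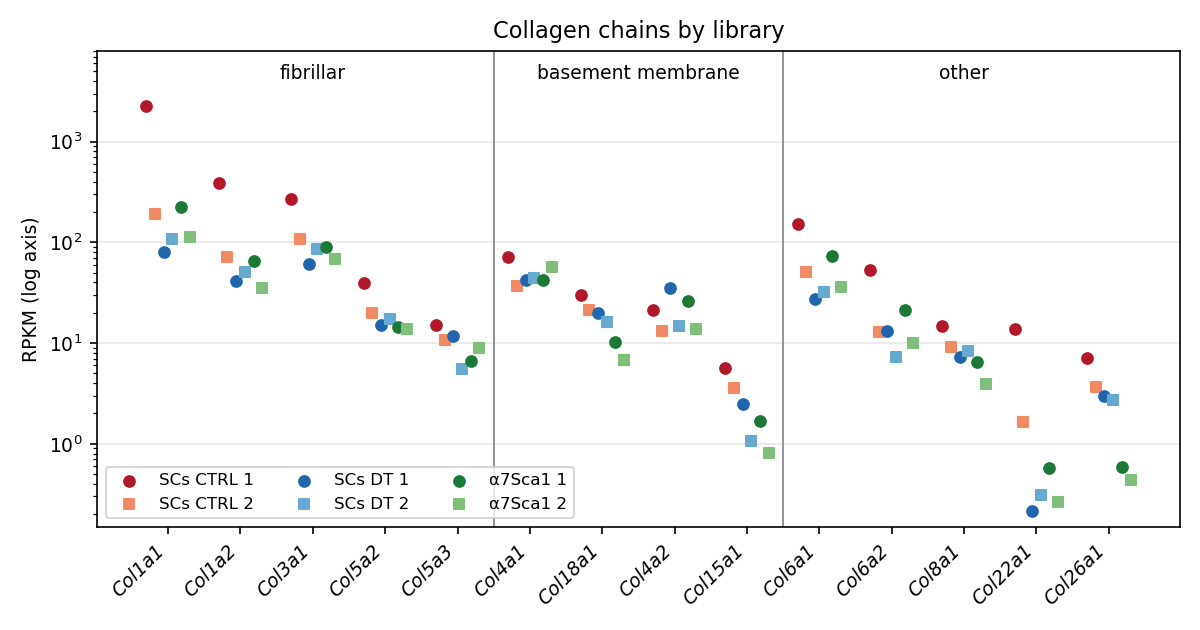
RPKM (log axis) of the 13 chains with a mean of at least 5 RPKM in a group, and of Col15a1, by class, with 1 point for each of the 6 libraries (circles library 1, squares library 2 of a group). Col1a1 in SCs CTRL 1 is the highest point (2287 RPKM), and the lowest points of Col26a1 and Col18a1 are those of the α7Sca1 libraries.

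The 13934 genes were ranked by SCs CTRL 1 minus SCs CTRL 2 on the log2(RPKM + 1) scale, with the sign kept, so genes higher in SCs CTRL 2 come last. Col1a1 (3.56) was at rank 4, Col22a1 (2.48) at rank 19, Col1a2 (2.41) at rank 23 and Col11a1 (2.18) at rank 32. Col6a2 (1.96) was at rank 41, Col2a1 (1.72) at rank 57 and Col6a1 (1.59) at rank 67. The order by class was fibrillar, other and basement membrane, with median gaps of 1.27, 0.57 and 0.49 and with 6 of 11, 5 of 18 and 0 of 7 chains over 1. Col4a5, Col4a6, Col19a1 and Col28a1 had gaps of at most 0.20 in SCs CTRL.

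**Figure D3:**
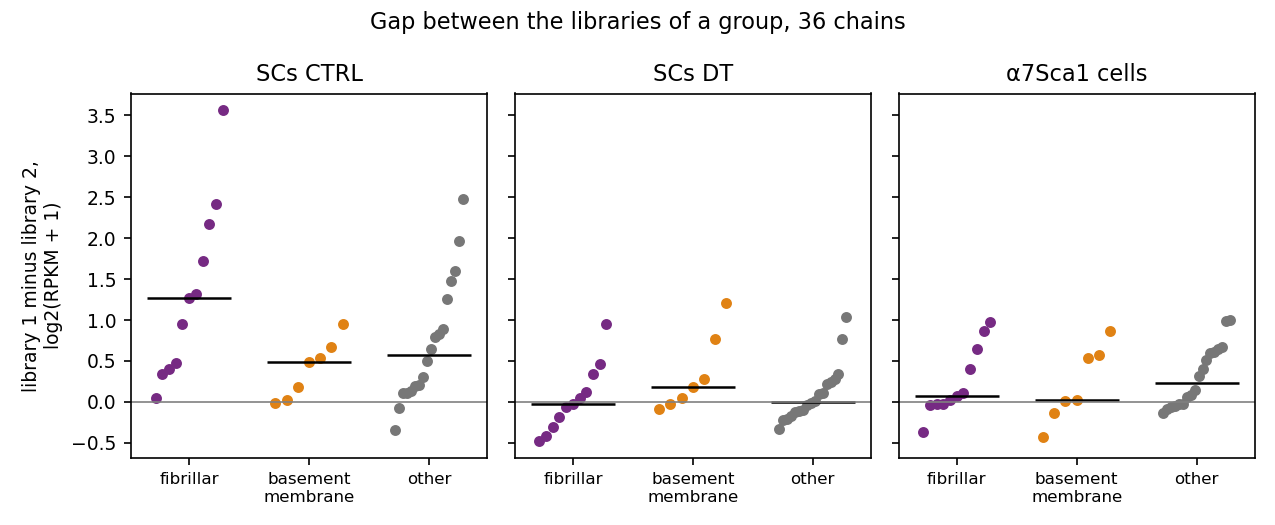
Difference on log2(RPKM + 1) between library 1 and library 2 of each group for the 36 chains tested, by class, with 1 point a chain and the class median as a line. All 11 fibrillar chains lie above 0 in SCs CTRL, with a median of 1.27, while the fibrillar medians in SCs DT and α7Sca1 cells lie near 0.

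The comparison of SCs DT with SCs CTRL asks what MΦ depletion does to collagen RNA in dystrophic SCs. No chain passed the test, where 0.352% of all genes were called higher and 0.0933% lower. At an unadjusted p under 0.05, 11 chains were lower and 0 higher, beside 716 lower and 733 higher among all genes. The median log2 fold change of the 36 chains was -0.51, against -0.01 over all genes tested. The fibrillar median was -0.75, that of the other chains -0.28 and that of the basement membrane chains -0.07. The fitted log2 fold changes were -2.81 for Col1a1 (standard error 1.00, adjusted p = 0.383 from limma), -1.23 for Col3a1 (0.44, adjusted p = 0.385), -1.53 for Col6a1 (0.54, adjusted p = 0.374), -1.04 for Col15a1 (0.33, adjusted p = 0.312) and -0.24 for Col4a1 (0.34, adjusted p = 0.918). For 18 of the 36 chains both SCs DT libraries lay below both SCs CTRL libraries, as they did for 25.1% of all genes, and for 2 chains they lay above, against 21.6% of all genes.

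The size of these differences depended on the SCs CTRL library. Both SCs DT libraries were below SCs CTRL 1 for 27 chains, where this held for 36.5% of all genes, and below SCs CTRL 2 for 19 chains, against 40.6%. The median difference of the SCs DT mean from SCs CTRL 1 was -0.79 on the log2 scale over all 36 chains and -1.37 over the fibrillar chains, whereas from SCs CTRL 2 it was -0.17 and -0.35. For basement membrane chains the 2 medians were -0.14 and 0.03. Leaving out 1 SCs CTRL library leaves that group with a single library, which is then assumed to vary like the other groups, so these fits hold no replicate check of SCs CTRL. With SCs CTRL 2 left out, Col1a1, Col2a1, Col11a1, Col11a2 and Col22a1 were called lower in SCs DT against SCs CTRL 1 alone, 5 of the chains beside 0.239% of all genes. With SCs CTRL 1 left out 0 chains were called, as were 0% of all genes lower, the fitted change of Col1a1 was -1.03 in place of -2.81 and the fitted change of Col4a1 turned to 0.23. Of the marker lists, 0 of 8 tendon and 0 of 14 FAP and fibroblast markers passed, with 6 and 3 lower and 0 and 1 higher at an unadjusted p under 0.05, respectively. In SCs DT the tendon markers summed to 282 and 299.7 RPKM and the FAP and fibroblast markers to 288 and 349 RPKM. All of these sums were above SCs CTRL 2 and below SCs CTRL 1. Thbs4 made up most of the tendon sums in SCs DT, with 219 and 233 RPKM against 104 in SCs CTRL 2. Comp was also above SCs CTRL 2 in both SCs DT libraries, whereas Tnmd, Scx, Mkx, Fmod, Kera and Chad were below it in both. Macrophage markers, of which 2 of 8 were lower and 0 higher, summed to 1019 and 546 RPKM in SCs CTRL and to 223 and 429 RPKM in SCs DT. Of 10 adipocyte markers 1 (Cfd) was higher and 0 lower, and of 10 satellite cell markers 1 (Calcr) was lower and 0 higher. The adipocyte markers summed to 97.6 and 73.5 RPKM in SCs CTRL and to 229 and 637 RPKM in SCs DT. No pericyte and smooth muscle, Schwann cell, endothelial or immediate early gene passed. The fitted changes were positive for 8 of 8, 5 of 6, 3 of 6 and 9 of 18 of them, respectively. The part of these lists in the collagen differences was not tested.

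Between the populations sorted from DT-injected mice, α7Sca1 cells and SCs DT, 6 of the 36 chains were at lower RNA level in α7Sca1 cells and 0 at a higher one. Of all genes 15.6% were lower and 14.6% higher, so the share of lower chains was near that of all genes. None of the 6 was a chain of type I, type III, type V or type VI. They were Col18a1, Col19a1, Col26a1, Col28a1, Col4a5 and Col4a6, whose order by size depends on the pseudocount, since with 0.1 RPKM added in place of 1 Col18a1 (-1.08) had the smallest and Col26a1 (-2.29) and Col19a1 (-2.28) the largest changes. With 1 RPKM added, Col26a1 was lower (log2 fold change of -1.36 with a standard error of 0.27, limma adjusted p = 0.00884), as was Col18a1 (-1.004, 0.28, adjusted p = 0.0321). Col19a1, a FACIT chain, had 0.933 and 1.25 RPKM in SCs DT and 0.109 and 0.182 RPKM in α7Sca1 cells, with 0.995 and 0.825 RPKM in SCs CTRL (-0.87, 0.14, adjusted p = 0.00390). All 4 SC libraries were above both α7Sca1 libraries. Col4a5 had 1.56 and 1.25 RPKM in SCs DT and 0.356 and 0.350 RPKM in α7Sca1 cells, with 1.51 and 1.54 RPKM in SCs CTRL (-0.83, 0.14, adjusted p = 0.00542). Col4a6, its partner in a minor type IV trimer, had 0.405 and 0.355 RPKM in SCs DT and 0.0238 and 0.0110 RPKM in α7Sca1 cells, with 0.292 and 0.269 RPKM in SCs CTRL (-0.44, 0.09, adjusted p = 0.0119). On mm9 chromosome X, Col4a6 (137599946 to 137908619, minus strand) and Col4a5 (137909928 to 138123778, plus strand) lie head to head, and here too the SC libraries did not overlap the α7Sca1 libraries. Col28a1 had 1.37 and 0.952 RPKM in SCs DT and 0.475 and 0.419 RPKM in α7Sca1 cells, with 1.02 and 0.756 RPKM in SCs CTRL (-0.57, 0.16, adjusted p = 0.0295).

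Col1a1, Col3a1, Col6a1, Col4a1 and Col15a1, the leading chains given in every comparison, did not pass in this one. The fitted log2 fold change was 0.75 for Col1a1 (standard error 1.00, adjusted p = 0.598 from limma), 0.11 for Col3a1 (0.44, adjusted p = 0.876), 0.77 for Col6a1 (0.54, adjusted p = 0.310), 0.18 for Col4a1 (0.34, adjusted p = 0.719) and -0.28 for Col15a1 (0.33, adjusted p = 0.544). The median over the 36 chains was -0.08, against -0.04 over all genes, and over the fibrillar chains it was -0.01. Col19a1 and Col4a5 passed under all 15 alternative settings. Without SCs DT 1, 2 chains remained called, Col4a5 and Col19a1, beside 6.32% of all genes called lower, and the call of Col26a1 was lost without either SCs DT library. The calls of Col18a1 and Col28a1 were lost under 8 and 7 of the 15 settings. Of the marker lists, all 10 satellite cell markers were lower in α7Sca1 cells. Their summed RPKM was 667 and 730 in SCs DT and 131 and 96.5 in α7Sca1 cells, and none was at 0. All 10 adipocyte markers were higher in α7Sca1 cells. They summed to 229 and 637 RPKM in SCs DT, with 1 marker listed at 0 in each library. In α7Sca1 cells they summed to 11403.5 and 11208 RPKM, with none at 0. Cfd made up most of the α7Sca1 sums, with 7389 RPKM in both libraries, the highest value of the shared distribution. In SCs DT it had 72.0 and 379 RPKM. FAP and fibroblast markers, of which 3 of 14 were higher and 0 lower, summed to 288 and 349 RPKM in SCs DT and to 1395 and 803 RPKM in α7Sca1 cells. The 3 were Ly6a, Pdgfra and Smoc2. Ly6a encodes Sca1, by which the 2 populations were sorted, so its call follows from the sort. Its part of these sums was 51.8 and 55.2 RPKM in SCs DT and 344 and 248 RPKM in α7Sca1 cells. Other lists were lower as well: 5 of 6 Schwann cell markers (summed RPKM 429 and 215 in SCs DT, 57.7 and 25.5 in α7Sca1 cells), 5 of 8 pericyte and smooth muscle markers (1133 and 823, against 214 and 82.6) and 2 of 6 endothelial markers (32.3 and 44.1, against 21.4 and 13.3), with 0 higher in these lists and none at 0. Of the tendon markers 1 of 8 was lower, and of the macrophage markers and of the immediate early genes 1 each was higher and 1 lower. The part of these lists in the collagen differences was not tested.

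Against SCs CTRL, which shares the α7Sca1 libraries with the comparison above, 9 chains were lower in α7Sca1 cells and 0 higher, where 17.3% of all genes were lower and 15.1% higher. Col22a1 was lower (log2 fold change of -2.14 with a standard error of 0.67, limma adjusted p = 0.0457), as were Col26a1 (-2.02, 0.27, adjusted p = 0.00161), Col18a1 (-1.49, 0.28, adjusted p = 0.00697), Col15a1 (-1.32, 0.33, adjusted p = 0.0203) and Col8a1 (-1.07, 0.30, adjusted p = 0.0313). Among the chains of low RPKM, Col4a5 (-0.90, 0.14, adjusted p = 0.00355), Col19a1 (-0.74, 0.14, adjusted p = 0.00685), Col17a1 (-0.45, 0.10, adjusted p = 0.0119) and Col4a6 (-0.33, 0.09, adjusted p = 0.0315) passed. Col17a1, the transmembrane collagen of hemidesmosomes, had 0.396 and 0.465 RPKM in SCs CTRL, 0.2503 and 0.159 in SCs DT, and 0.0361 and 0.0524 RPKM in α7Sca1 cells, and its 3 groups did not overlap. No fibrillar chain passed, with fitted changes of -2.06 for Col1a1 (1.00, adjusted p = 0.157) and -1.12 for Col3a1 (0.44, adjusted p = 0.0915), nor did Col6a1 (-0.76, 0.54, adjusted p = 0.312) or Col4a1 (-0.06, 0.34, adjusted p = 0.914). The median over the 36 chains was -0.65, against -0.06 over all genes tested.

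The SCs CTRL libraries again weighed on the count and on the size of the changes. Without SCs CTRL 1, the fitted change was -0.91 for Col22a1, -1.63 for Col26a1, -0.28 for Col1a1 and -0.46 for Col3a1. Then 4 chains were lower (Col4a5, Col17a1, Col22a1 and Col26a1), beside 8.52% of all genes, and without SCs CTRL 2, 14 were, beside 7.03% of all genes, among them 8 fibrillar chains with Col1a1, Col1a2 and Col3a1. Without α7Sca1 2, 5 chains were lower, beside 15.1% of all genes. Col4a5 and Col26a1 passed under all 15 alternative settings. The call of Col22a1 was lost under 9 of 15 settings, that of Col8a1 under 8 of 15 and that of Col4a6 under 7 of 14. Lower in α7Sca1 cells were 10 of 10 satellite cell, 7 of 8 macrophage, 4 of 8 tendon and 3 of 8 pericyte and smooth muscle markers. So were 2 of 6 Schwann cell and 1 of 6 endothelial markers. Higher were 10 of 10 adipocyte, 3 of 14 FAP and fibroblast and 1 of 8 pericyte and smooth muscle markers. Of 18 immediate early genes 3 were higher and 2 lower. The 3 FAP and fibroblast markers were again Ly6a, which encodes the sort marker Sca1, Pdgfra and Smoc2. The summed RPKM in α7Sca1 cells was 292 and 268 for the macrophage markers and 654 and 259 for the tendon markers. These tendon sums lay between those of the SCs CTRL libraries, and Thbs4 made up most of them, with 520 and 210 RPKM. The adipocyte markers summed to 97.6 and 73.5 RPKM in SCs CTRL, where 1 and 2 of them were listed at 0, the only list in these groups with a marker at 0. The part of these lists was not tested.

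**Figure D4:**
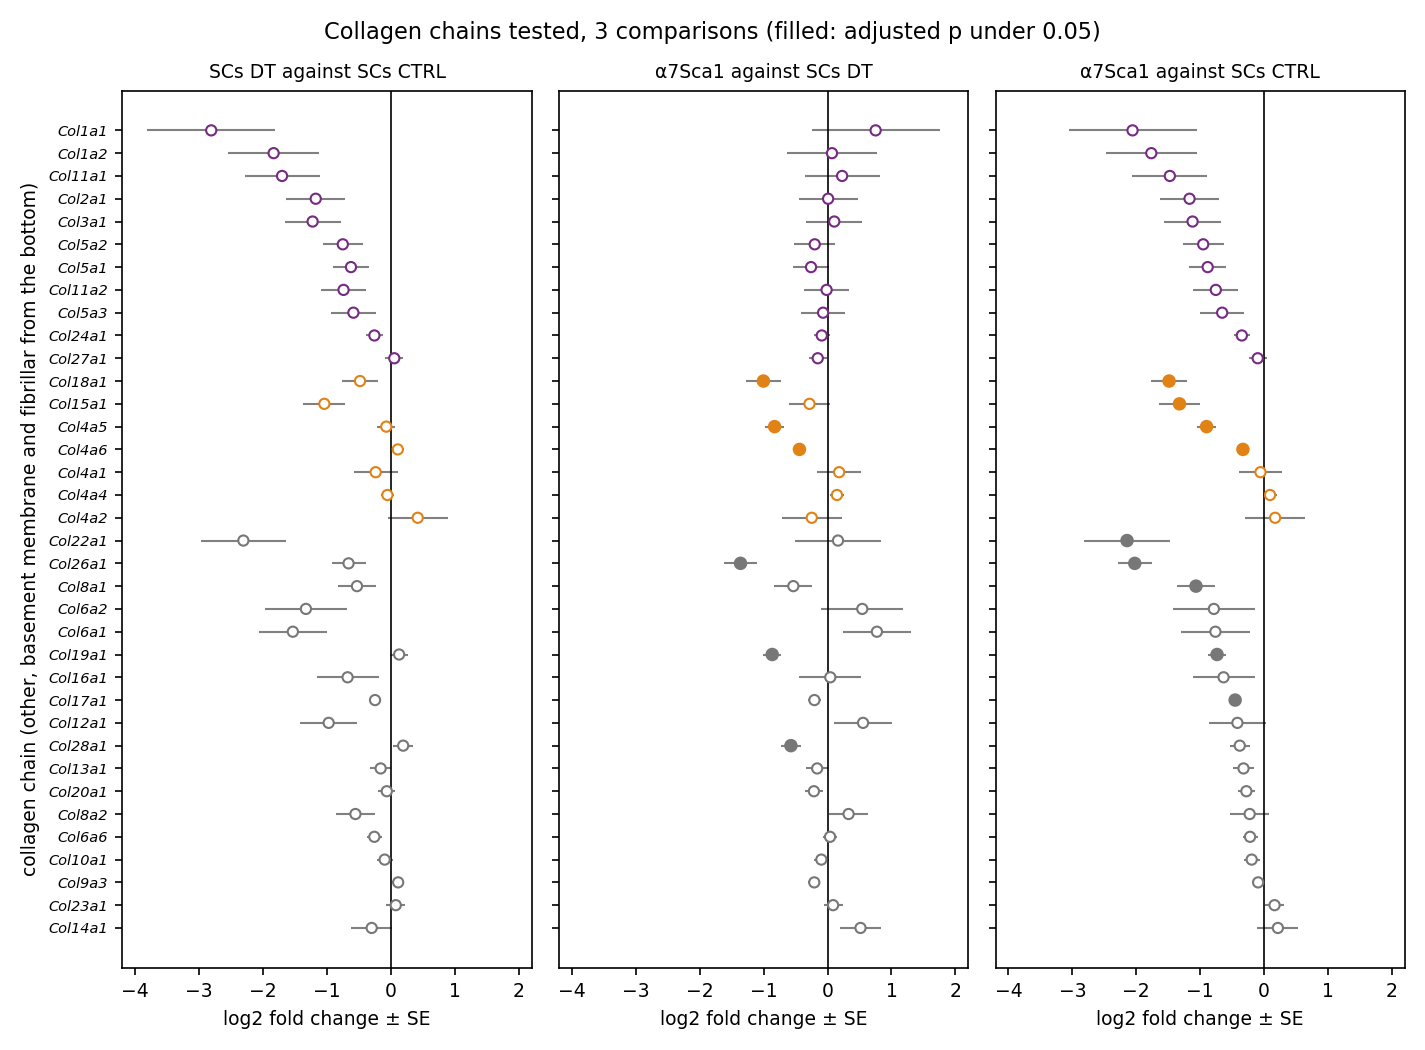
Log2 fold change ± standard error from limma on log2(RPKM + 1) for the 36 chains tested in the 3 comparisons, coloured by class (purple fibrillar, orange basement membrane, grey other), with filled points for an adjusted p under 0.05. No point is filled for SCs DT against SCs CTRL, 6 are filled for α7Sca1 cells against SCs DT and 9 against SCs CTRL, all of them below 0 and none fibrillar.

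The enzymes and chaperones that modify, fold, process and crosslink collagen were read beside the chains. Of 32 listed genes 30 were tested. In SCs DT against SCs CTRL 0 passed in either direction, with 1 higher and 2 lower at an unadjusted p under 0.05 and a median log2 fold change of -0.38. The highest of them, Sparc, a collagen-binding matrix protein, had 1818 and 495 RPKM in SCs CTRL, 309 and 324 in SCs DT, and 587 and 282 RPKM in α7Sca1 cells, with SCs CTRL 1 far above the rest. Serpinh1, the collagen chaperone of the endoplasmic reticulum, had 229 and 199.98 RPKM in SCs CTRL, 178 and 74.5 in SCs DT, and 106 and 20.3 RPKM in α7Sca1 cells, so that the SCs DT and α7Sca1 libraries overlapped. Within SCs CTRL, 27 of the 30 genes were higher in library 1, with a median gap of 0.45.

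Relative to SCs DT, α7Sca1 cells had 1 of the 30 genes of this list higher and 2 lower, where 14.6% of all genes were higher and 15.6% lower. P3h2, a prolyl 3-hydroxylase known to act on type IV collagen, was higher (log2 fold change of 0.83 with a standard error of 0.23, limma adjusted p = 0.0326). Ppib, the cyclophilin of the prolyl 3-hydroxylation complex, was lower (-1.54, 0.27, adjusted p = 0.00589), as was Adamts14, a procollagen N-propeptidase (-1.43, 0.26, adjusted p = 0.00662). Against SCs CTRL, P3h2 was higher (1.18, 0.23, adjusted p = 0.00828), and Ppib (-1.88, 0.27, adjusted p = 0.00237), P4ha1 (-0.92, 0.25, adjusted p = 0.0302) and Pcolce2 (-0.81, 0.19, adjusted p = 0.0178) were lower. In that comparison 15.1% of all genes were higher and 17.3% lower.

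Of the 8 collagen receptors, 0 passed between SCs DT and SCs CTRL, with 1 higher and 0 lower at an unadjusted p under 0.05. In α7Sca1 cells 2 passed as lower against SCs DT, beside 15.6% of all genes, and 3 against SCs CTRL, beside 17.3%. Ddr1, a receptor tyrosine kinase that binds collagen, had 6.99 and 8.96 RPKM in SCs CTRL, 14.2 and 12.3 in SCs DT, and 2.88 and 1.78 RPKM in α7Sca1 cells. Its groups did not overlap, and the log2 fold change of α7Sca1 cells was -2.12 against SCs DT (standard error 0.24, adjusted p = 0.000918 from limma) and -1.44 against SCs CTRL (0.24, adjusted p = 0.00414). Itgb1, the common β subunit of the collagen-binding integrins, had 40.1 and 35.9 RPKM in SCs CTRL, 59.5 and 36.4 in SCs DT, and 18.2 and 9.73 RPKM in α7Sca1 cells. Both α7Sca1 libraries were below all SC libraries (-1.73 against SCs DT, 0.35, adjusted p = 0.0103, and -1.44 against SCs CTRL, 0.35, adjusted p = 0.0190). Ddr2, the related receptor of fibrillar collagens, was lower against SCs CTRL (-0.83, 0.23, adjusted p = 0.0326).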

How the data were processed

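RNA-Seq was performed by the authors on 6 libraries, each made by SMART-seq2 from 5 ng of total RNA and read as 50 bp single ends. Per the methods and the submitters' processing notes, reads were aligned to mm9 with TopHat (2.0.6 in the methods, TopHat2 2.0.8 in the notes), and the authors deposited RPKM values per gene. Sorted RPKM values differed between libraries by at most 0.0192 RPKM, so they had been brought to one distribution, and library depth is unknown. A deposited table that holds the fold changes and p-values of the authors' comparison of SCs, and its 10 columns of values per sample were not used.

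The labels of the samples gave the groups and the replicate numbers. On log2(RPKM + 1), limma 3.58.1 under R 4.3.3 was run over all 6 libraries with a variance trend and no replicate block, keeping the 13934 genes whose highest RPKM exceeded 0.25, with Benjamini-Hochberg adjustment over these with a threshold of 0.05 (3 residual and 4.29 prior degrees of freedom). The fit was tested on simulated data. The members and gene lists were chosen with earlier results of these data known. By rule, library values were given for chains with a mean of at least 5 RPKM in a group, and fold changes for at most 10 chains that passed and for Col1a1, Col3a1, Col4a1, Col6a1 and Col15a1; library values of Col15a1 and of chains called at lower levels were added. Of other lists up to 4 genes that passed were named, or the 2 of highest RPKM. Positions are from GENCODE M1 on NCBIM37 (mm9) and promoters from RefSeq GRCm38.p6. Col6a3 is not analysed here. Alternatives were pseudocounts of 0.1 and 0.5 RPKM, no filter, a maximum RPKM above 1, median ratio scaling, only the 2 groups compared, a replicate block, eBayes without trend, library quality weights and each library left out in turn. Python 3.11.15, pandas 2.3.3, numpy 2.4.6 and matplotlib 3.10.9 were also used.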

Additional observations from a re-analysis of the deposited data

How the results depend on the processing

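With each library left out in turn, the number of chains lower in SCs DT than in SCs CTRL ranged from 0 to 5, in α7Sca1 cells against SCs DT from 2 to 5, and in α7Sca1 cells against SCs CTRL from 4 to 14, the extremes of the last coming without SCs CTRL 1 and without SCs CTRL 2. The group then held 1 library, assumed to vary like the other groups. Without the filter, 1 chain was higher in α7Sca1 cells than in SCs CTRL. Under the remaining alternatives these counts stayed within 1.5 times the reported ones. The medians of the chains moved by less than the spread between the libraries of a group, but the gap between the SCs CTRL libraries makes this limit wide. In SCs DT against SCs CTRL the median was -0.26 without the filter and -0.79 with 0.1 RPKM added, in place of -0.51. Fitted changes that did not pass turned sign when a library was left out: Col4a1 ranged from -0.71 to 0.23 in SCs DT against SCs CTRL, from -0.034 to 0.40 in α7Sca1 cells against SCs DT and from -0.53 to 0.42 against SCs CTRL, where median ratio scaling gave 0.083. Col15a1 ranged from -0.66 to 0.10 and Col3a1 from -0.13 to 0.35 in α7Sca1 cells against SCs DT, and Col6a1 from -1.56 to 0.034 against SCs CTRL. The cause was not tested. Replicate numbers share no stated animal or day, and deviations of same-numbered libraries correlated at -0.13 (SCs CTRL with SCs DT), 0.16 (SCs CTRL with α7Sca1 cells) and 0.25 (SCs DT with α7Sca1 cells) over genes, so the numbers were not taken as pairs. With a replicate block, 0 chains were lower in SCs DT, 6 in α7Sca1 cells against SCs DT and 11 against SCs CTRL. With 2 libraries a group and unknown depth, chains near or below 1 RPKM carry the least certain values.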

Other observations

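Ratios of chains within a library are ratios of the deposited RPKM values, which had been brought to one distribution, and not ratios of reads. The ratio of Col1a1 to Col1a2 was 5.92 and 2.68 in SCs CTRL, 1.96 and 2.12 in SCs DT, and 3.40 and 3.17 in α7Sca1 cells, so that SCs DT lay below the other libraries and α7Sca1 cells between the SCs CTRL libraries. The ratio of Col1a1 to Col3a1 was 8.45 in SCs CTRL 1 and 1.78 in SCs CTRL 2, 1.32 and 1.26 in SCs DT, and 2.48 and 1.66 in α7Sca1 cells. The ratio of Col6a1 to Col6a2 ranged from 2.11 to 4.39 over the 6 libraries, with both ends in SCs DT. For Col4a1 and Col4a2 it was 3.33 and 2.79 in SCs CTRL, 1.19 and 3.04 in SCs DT, and 1.62 and 4.12 in α7Sca1 cells, and all groups overlapped. These ratios were chosen after the values were seen and carry no test.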
